A study of Rattus norvegicus with 14 samples.

Results

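The inhibin, activin and follistatin genes were followed across a range of phthalate doses in the fetal rat testis. The members are the genes of a list of 9 that have an entry in the deposited count table, and 7 do: Inha, Inhba, Fst, Fstl3, Acvr1b, Acvr2b and Tgfbr3, of 18174 genes in the table. All 7 passed the filter on low counts, which 12719 genes passed in all. Inhbb and Acvr2a were not analysed here.

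Harlan Sprague Dawley dams received dicyclohexyl phthalate (DCHP), a plasticizer, by oral gavage on gestational days 14 to 18. The vehicle group received corn oil, and the exposed groups received DCHP at 100, 300, 600 and 900 mg/kg/day. The testes of a litter, dissected on day 18, were combined into 1 sample, so the litter is the unit, with 2 litters at 900 mg/kg/day and 3 in every other group. RNA was measured with TempO-Seq, which sequences detector probes joined where they meet on an RNA, so counts are of probes and do not grow with the length of a gene.

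Inhibins and activins are dimeric ligands of the TGF-beta family that share their beta subunits. An alpha subunit joined to a beta subunit makes an inhibin, whereas beta subunits joined to each other make an activin. Activin binds a type II receptor, which recruits and activates a type I receptor that phosphorylates Smad2 and Smad3. Follistatin and follistatin-like 3 trap activin outside the cell, and betaglycan, the product of Tgfbr3, helps inhibin to occupy type II receptors in place of activin. In the fetal rat testis the alpha subunit is made by Sertoli and Leydig cells. In the fetal mouse testis activin A from Leydig cells drives Sertoli cell proliferation.

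The promoters of the subunit genes are shown because Inha and Inhba are the members whose RNA changed over dose. Both sequences are from RefSeq on the assembly GRCr8 and run from 250 bases before to 50 bases after the listed start, 5′ to 3′ on the strand of the gene. Inha lies on the plus strand, at chr9:84442859-84443158, and Inhba on the minus strand, at chr17:53804459-53804758. Capitals mark matches, on either strand, to AGGTCA (the core bound by orphan nuclear receptors such as steroidogenic factor 1), GATAA (the core recognised by GATA factors), TGCGTCA (the variant cyclic AMP response element) or TGACGTCA (the full element).
Inha: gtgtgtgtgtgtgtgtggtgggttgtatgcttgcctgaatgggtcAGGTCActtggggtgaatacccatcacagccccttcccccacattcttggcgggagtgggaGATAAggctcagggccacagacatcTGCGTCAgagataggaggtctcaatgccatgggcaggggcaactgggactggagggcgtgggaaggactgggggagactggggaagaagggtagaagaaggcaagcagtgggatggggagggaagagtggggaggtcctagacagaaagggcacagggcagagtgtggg
Inhba: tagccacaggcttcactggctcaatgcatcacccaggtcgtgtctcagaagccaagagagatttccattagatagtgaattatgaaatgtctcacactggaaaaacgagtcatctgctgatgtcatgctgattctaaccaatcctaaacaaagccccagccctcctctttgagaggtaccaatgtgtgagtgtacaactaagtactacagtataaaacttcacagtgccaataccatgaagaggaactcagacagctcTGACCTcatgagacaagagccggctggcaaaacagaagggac
In rodent gonadal cells the alpha subunit promoter is known to respond to cyclic AMP, steroidogenic factor 1 and GATA4. The motifs searched belong to these same signals, so matches in the Inha window are not an independent finding. The Inha window held AGGTCA at position -205, GATAA at -144 and TGCGTCA at -119 from the listed start, each on the gene's own strand, and no TGACGTCA. Among 33469 rat promoters of the same length, 16.2% held AGGTCA, 26.5% held GATAA, 1.90% held TGCGTCA and 1.83% held TGACGTCA. The Inhba window held AGGTCA once, on the opposite strand (printed as TGACCT) at position 9, and none of the other motifs. The listed Inhba start lies inside the gene, with 6434 bases of the gene upstream of it, so the window is not that of the outermost start. None of these motifs overlapped another. Members without a called change also held matches. The Fstl3 window held AGGTCA at -199 and the Acvr2b window GATAA at 42, each on the opposite strand. The windows of Acvr1b and Tgfbr3 held none of the motifs. These matches are letters in a window and not measured binding, and their part in the changes over dose was not tested.

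The libraries held 5558873 to 11272861 estimated counts. On the first principal component of all tested genes, with 36.1% of the variance, the litters did not follow dose. The 100 mg/kg/day litter 1 (-65.1), vehicle litter 1 (-42.6) and both 900 mg/kg/day litters (-38.2 and -22.8) lay apart from the other 10 litters, which lay between -1.84 and 35.6. Results are also given without vehicle litter 1 and 100 mg/kg/day litter 1, which leaves the 900 mg/kg/day litters alone at that end of the component. Markers of Sertoli cells, the somatic cells of the testis cords, were detected, with 9 of 10 counted in every library and a summed level of 1326 to 1537 CPM in the vehicle group and of 1374 to 1552 CPM in the highest dose group. The 6 Leydig markers were all in the table. Their summed level was 3553 to 7577 CPM in vehicle, 2184 to 4145 CPM at 100, 2214 to 3248 CPM at 300, 1306 to 3169 CPM at 600 and 1036 to 1260 CPM at 900 mg/kg/day. Levels are CPM (counts scaled to a common library total). For the members they use library totals scaled by the trimmed mean of M-values (TMM), and for the marker sums unscaled totals.

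Inha, which encodes the inhibin alpha subunit, fell with dose and had the steepest fall of the members. Its identifier in the files is ENSRNOG00000020097, and it lies on the plus strand of rn7 at chr9:76993589-76997249. The vehicle litters were at 172, 226 and 192 CPM, and the litters at 100 mg/kg/day at 116, 143 and 128 CPM. At 300 mg/kg/day they were at 126, 116 and 119 CPM, and at 600 mg/kg/day at 122, 107 and 81.6 CPM. The 900 mg/kg/day litters were at 80.1 and 84.0 CPM. Every exposed litter was therefore below every vehicle litter, and the 900 mg/kg/day litters overlapped only with the range at 600 mg/kg/day.

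**Figure D1:**
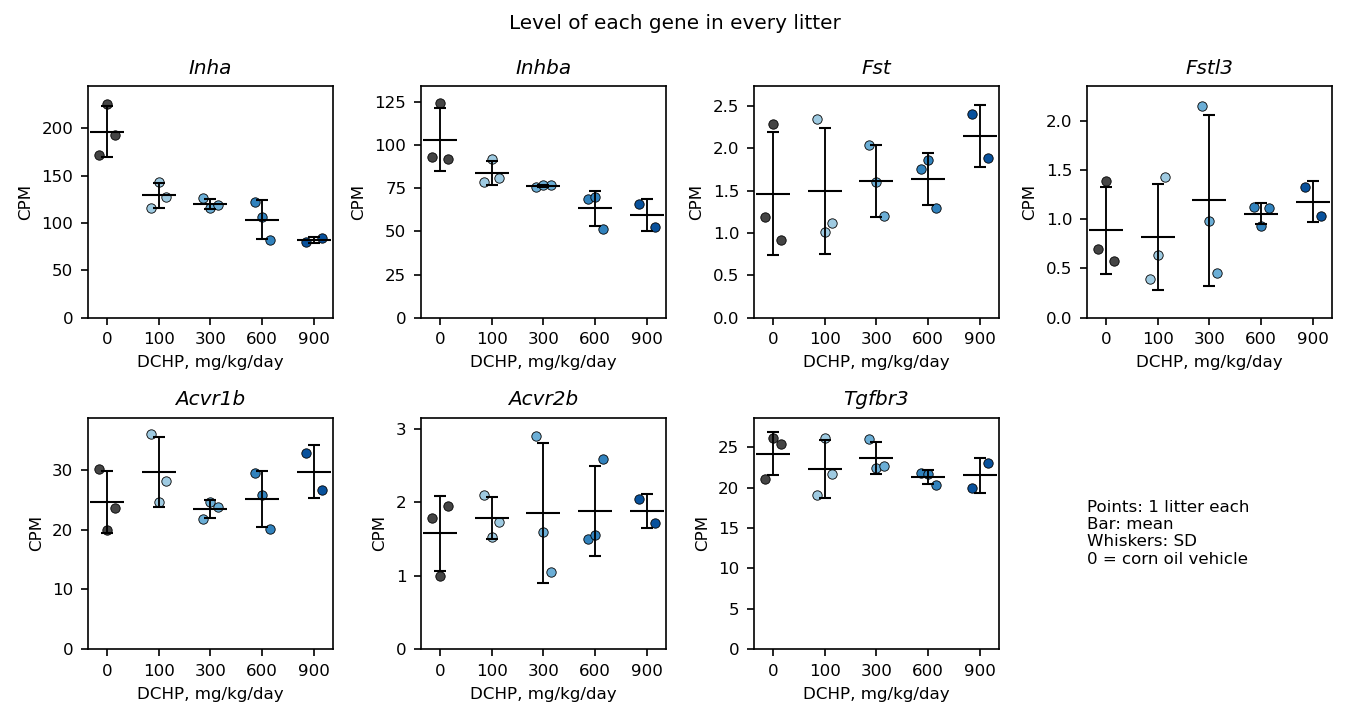
Level of each of the 7 genes in CPM (y axis, from 0) by DCHP dose in mg/kg/day (x axis). Points are litters, horizontal bars are means and whiskers are SD over 3 litters (2 at 900 mg/kg/day); all exposed litters of Inha and Inhba lie below the vehicle litters, and those of the other 5 genes do not.

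The group means of Inha were 197 ± 27.3 CPM in vehicle (SD, n = 3), 129 ± 13.5 at 100 (n = 3), 120 ± 5.38 at 300 (n = 3), 104 ± 20.6 at 600 (n = 3) and 82.0 ± 2.74 at 900 mg/kg/day (n = 2). These means were 65.6%, 61.2%, 52.7% and 41.7% of the vehicle mean. Over dose the slope was -0.12 ± 0.020 (SE) on the log2 scale per 100 mg/kg/day, with an adjusted p = 0.00770 (edgeR quasi-likelihood, adjusted by Benjamini-Hochberg across the tested genes). Against vehicle, Inha fell by 0.92 ± 0.15 on the log2 scale at 600 mg/kg/day (edgeR adjusted p = 0.0290) and by 1.26 ± 0.17 at 900 mg/kg/day (edgeR adjusted p = 0.00716, 95% interval -1.63 to -0.89). At 100 and 300 mg/kg/day its log2 differences were -0.61 ± 0.15 and -0.71 ± 0.15, which did not pass (edgeR adjusted p = 0.9999 and 0.207), although no litter overlapped with vehicle.

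The largest step of the Inha means was that from vehicle to 100 mg/kg/day. From 100 to 300, 300 to 600 and 600 to 900 mg/kg/day the log2 differences of Inha were -0.10 ± 0.15, -0.21 ± 0.15 and -0.34 ± 0.17, and none passed (edgeR adjusted p = 0.9993, 1 and 0.508). None of the 7 members passed in a comparison of neighbouring doses, in edgeR or DESeq2, and 0 had an unadjusted p under 0.05. Over all genes edgeR called 0 (0%) in each of these comparisons, with 2.45%, 1.27% and 8.32% at an unadjusted p under 0.05. For 900 against 600 mg/kg/day 7 genes were called with DESeq2, 2143 in a fit of only those groups and 1769 without vehicle litter 1 and 100 mg/kg/day litter 1.

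The call at 600 mg/kg/day was lost when any of 8 of the 14 litters was left out: vehicle 2 or 3, 100 mg/kg/day litter 3, 300 mg/kg/day litter 1, 2 or 3, or 600 mg/kg/day litter 2 or 3 (edgeR adjusted p = 0.0545 to 0.159, log2 differences -0.95 to -0.78). Over all genes those 8 fits called 6 to 16 at 600 mg/kg/day, against 28 with all litters, so the loss was not particular to Inha. The call at 900 mg/kg/day was lost without either of its litters, which leaves 1 litter in that group (log2 differences -1.22 and -1.29). The slope of Inha over dose passed with any 1 of the 14 litters left out (edgeR adjusted p = 0.00211 to 0.0394). Without vehicle litter 1 and 100 mg/kg/day litter 1, Inha also passed at 300 mg/kg/day, with a log2 difference of -0.80 ± 0.14 (edgeR adjusted p = 0.0176), and its difference at 900 mg/kg/day was -1.38 ± 0.15 (edgeR adjusted p = 0.000199). Over all genes that fit called 39 of 12608 at 300 and 2102 at 900 mg/kg/day.

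Inhba, which encodes the beta A subunit shared by inhibin A and activin A, fell over dose by a shallower slope. It is ENSRNOG00000014320, on the minus strand of rn7 at chr17:49095920-49108983. The vehicle litters were at 93.0, 124 and 92.2 CPM, the 100 mg/kg/day litters at 78.6, 91.9 and 81.3 CPM and the 300 mg/kg/day litters at 75.7, 77.0 and 76.8 CPM. At 600 mg/kg/day they were at 69.0, 69.8 and 51.6 CPM, and at 900 mg/kg/day at 66.1 and 52.8 CPM. No exposed litter reached the lowest vehicle litter, though the highest litter at 100 mg/kg/day lay just under it, and the groups at 600 and 900 mg/kg/day overlapped.

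Group means of Inhba were 103 ± 18.3 CPM in vehicle (SD, n = 3) and 84.0 ± 7.04, 76.5 ± 0.675, 63.5 ± 10.3 and 59.5 ± 9.42 CPM with rising dose, which are 81.4%, 74.2%, 61.5% and 57.6% of vehicle. The slope was -0.086 ± 0.016 per 100 mg/kg/day on the log2 scale, and it passed (edgeR adjusted p = 0.0245). In single comparisons with vehicle the log2 differences were -0.30 ± 0.15, -0.43 ± 0.15, -0.70 ± 0.16 and -0.80 ± 0.18 at 100, 300, 600 and 900 mg/kg/day, and none passed (edgeR adjusted p = 0.9999, 0.9995, 0.170 and 0.124). The 95% interval at 900 mg/kg/day was -1.18 to -0.42. With DESeq2 Inhba passed at 600 and 900 mg/kg/day (adjusted p = 0.0261 and 0.00802), and so it did in edgeR without vehicle litter 1 and 100 mg/kg/day litter 1 (adjusted p = 0.0212 and 0.00331). Over all genes the latter fit called 66 of 12608 at 600 and 2102 at 900 mg/kg/day, so a pass there at 900 mg/kg/day is not particular to Inhba. The slope did not pass when vehicle litter 3, 100 mg/kg/day litter 2 or 900 mg/kg/day litter 2 was left out (edgeR adjusted p = 0.0564, 0.0516 and 0.155).

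Against vehicle, 0, 0, 1 and 1 of the 7 members fell at 100, 300, 600 and 900 mg/kg/day and 2 fell over dose, and none rose. In the same tests 0%, 0.0472%, 0.189%, 0.204% and 0.33% of all tested genes fell, and 0%, 0%, 0.0314%, 0.0472% and 0.0943% rose. At an unadjusted p under 0.05, 1, 2, 2 and 2 members lay lower at the 4 doses and 2 over dose, against 1.6%, 1.76%, 2.89%, 2.86% and 2.86% of all tested genes. DESeq2 called 0, 1, 2 and 2 members at the 4 doses, against 0, 26, 58 and 85 of 18170 genes. Groups without overlap were seen for Inha and Inhba at every dose, with the exposed litters lower, against 2.99%, 4.46%, 5.92% and 8.83% of all tested genes. The median log2 difference over the 7 members was -0.085, -0.030, 0.039 and 0.25, and over all tested genes it was 0.010, -0.015, -0.021 and 0.024. The 4 comparisons share the same 3 vehicle litters and are not independent of each other.

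**Figure D2:**
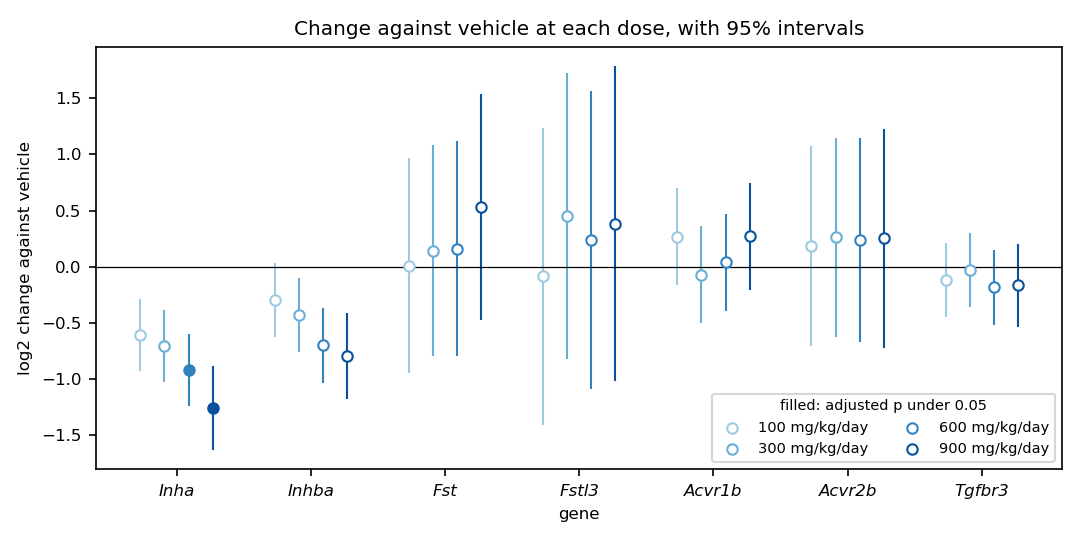
Log2 change against vehicle (y axis) of each gene (x axis) at the 4 doses, as the fitted edgeR value with its 95% interval. Filled points passed at an adjusted p under 0.05, which only Inha did, at 600 and 900 mg/kg/day; the intervals of Fst, Fstl3 and Acvr2b, the genes with few counts, are the widest.

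The activin-binding proteins gave no called change. Fst encodes follistatin, which binds activin nearly irreversibly (ENSRNOG00000011631, minus strand, chr2:46123439-46130572). Its litters were at 1.19, 2.29 and 0.914 CPM in vehicle, 2.35, 1.02 and 1.12 at 100, 2.04, 1.60 and 1.20 at 300, 1.75, 1.87 and 1.29 at 600, and 2.41 and 1.89 CPM at 900 mg/kg/day. Every group overlapped with vehicle, and these levels rest on 7 to 23 counts a library. The log2 difference at 900 mg/kg/day was 0.53 ± 0.47, with a 95% interval of -0.48 to 1.54, and the slope was 0.053 ± 0.040 (edgeR adjusted p = 0.852 and 0.9999).

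Fstl3 encodes follistatin-like 3, a secreted relative that also binds activin (ENSRNOG00000009311, minus strand, chr7:9923576-9939640). It had the fewest counts of the members, 3 to 20 a library. Its litters were at 0.695, 1.39 and 0.572 CPM in vehicle, 0.392, 0.635 and 1.43 at 100, 2.15, 0.982 and 0.450 at 300, 1.13, 0.933 and 1.11 at 600, and 1.33 and 1.03 CPM at 900 mg/kg/day. The groups overlapped throughout. At 900 mg/kg/day the log2 difference was 0.38 ± 0.65, with a 95% interval of -1.02 to 1.79 (edgeR adjusted p = 0.877). For both genes the intervals hold a fall as well as a rise, so a change within these bounds cannot be told from no change at this depth.

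Of the receptors, Acvr1b encodes ALK4, the type I receptor of activin (ENSRNOG00000006934, plus strand, chr7:132286275-132329674), and it did not pass at any dose. Its litters were at 30.2, 19.9 and 23.5 CPM in vehicle, 36.1, 24.6 and 28.0 at 100, 21.7, 24.7 and 23.7 at 300, 29.5, 25.8 and 20.2 at 600, and 32.8 and 26.5 CPM at 900 mg/kg/day. All groups overlapped with vehicle. Its log2 difference at 900 mg/kg/day was 0.27 ± 0.22, with a 95% interval of -0.21 to 0.75, and its slope was 0.011 ± 0.021 (edgeR adjusted p = 0.852 and 0.9999). The 3 highest values, 36.1, 32.8 and 30.2 CPM, were in the 3 litters lowest on the first principal component, which come from 3 different dose groups. Without vehicle litter 1 and 100 mg/kg/day litter 1 its difference at 900 mg/kg/day was 0.42 ± 0.18 and did not pass either (edgeR adjusted p = 0.130).

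**Figure D3:**
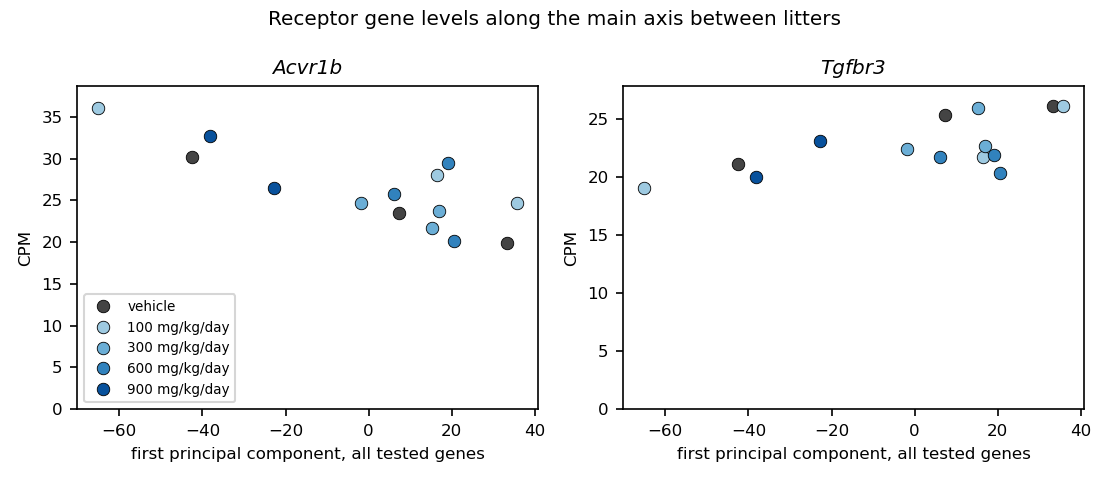
CPM of Acvr1b (left) and Tgfbr3 (right) on the y axis against the first principal component of all tested genes (x axis, no unit), with 1 point per litter coloured by dose. The 3 highest Acvr1b values lie at the low end of the component in litters of vehicle, 100 and 900 mg/kg/day, and the lowest 2 Tgfbr3 values, 19.1 and 20.0 CPM, are in litters of 100 and 900 mg/kg/day at that end.

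Acvr2b encodes a type II receptor that binds activin directly (ENSRNOG00000014477, plus strand, chr8:119138812-119170459). Its litters were at 1.79, 0.995 and 1.94 CPM in vehicle, 2.09, 1.52 and 1.73 at 100, 2.90, 1.60 and 1.05 at 300, 1.50, 1.55 and 2.59 at 600, and 2.05 and 1.72 CPM at 900 mg/kg/day, from 7 to 27 counts a library. The groups overlapped throughout. Its log2 difference at 900 mg/kg/day was 0.25 ± 0.45, with a 95% interval of -0.72 to 1.23 (edgeR adjusted p = 0.882).

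Tgfbr3 encodes betaglycan, the inhibin co-receptor (ENSRNOG00000002093, plus strand, chr14:2489397-2663342). Its litters were at 21.1, 26.2 and 25.4 CPM in vehicle, 19.1, 26.2 and 21.7 at 100, 26.0, 22.5 and 22.7 at 300, 21.9, 21.8 and 20.3 at 600, and 20.0 and 23.1 CPM at 900 mg/kg/day. Every group overlapped with vehicle, and litters of a group varied less for this gene than for the other members, with an SD of 0.154 on the log2 scale. At 900 mg/kg/day the log2 difference was -0.17 ± 0.17, with a 95% interval of -0.54 to 0.20, and the slope was -0.018 ± 0.015 (edgeR adjusted p = 0.852 and 0.9999). The lower bound of that interval lies above the upper bound of -0.89 for Inha at the same dose.

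Whether Inha moved differently from the other members was tested on the difference of their log2 CPM in each litter, with a two-sided permutation test of its slope on dose (100000 permutations) and adjustment over the 6 pairs. Inha was chosen as the reference because its fall was known, so these p-values describe the difference and are not independent support for it. The slope was negative for all 6 pairs, a sign that follows from taking the member with the steepest fall as the reference. Against Tgfbr3 the slope was -0.10 ± 0.017 on the log2 scale per 100 mg/kg/day (permutation adjusted p = 0.00036), and against Acvr1b it was -0.13 ± 0.034 (permutation adjusted p = 0.00394). Against Acvr2b it was -0.14 ± 0.046 (permutation adjusted p = 0.0108), against Fst -0.17 ± 0.036 (permutation adjusted p = 0.00132) and against Fstl3 -0.17 ± 0.045 (permutation adjusted p = 0.00496). The slope against Inhba was the shallowest, at -0.032 ± 0.014 (permutation adjusted p = 0.0356).

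The ratio of Inha to Inhba counts was 1.85, 1.82 and 2.09 in the vehicle litters, 1.48, 1.56 and 1.57 at 100, 1.67, 1.50 and 1.55 at 300, 1.77, 1.53 and 1.58 at 600, and 1.21 and 1.59 at 900 mg/kg/day. All exposed litters were below the vehicle litters. Among the exposed groups the ratio did not order by dose, with means of 1.54, 1.57, 1.63 and 1.40. Probes differ in efficiency, so the ratio is not one of molecules, and its change over litters is what can be read. This slope did not pass without any 1 of vehicle litter 1, 2 or 3, 600 mg/kg/day litter 2 or 900 mg/kg/day litter 1 (permutation adjusted p = 0.0527 to 0.230), and without the last of these it was -0.018.

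The ratio of Inha to Tgfbr3 counts was 8.12, 8.62 and 7.59 in vehicle, 6.10, 5.47 and 5.88 at 100, 4.86, 5.15 and 5.25 at 300, 5.59, 4.91 and 4.01 at 600, and 4.01 and 3.64 at 900 mg/kg/day. All exposed litters were again below the vehicle litters, and the group means, from 8.11 in vehicle to 3.82 at 900 mg/kg/day, were lower at each higher dose.

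**Figure D4:**
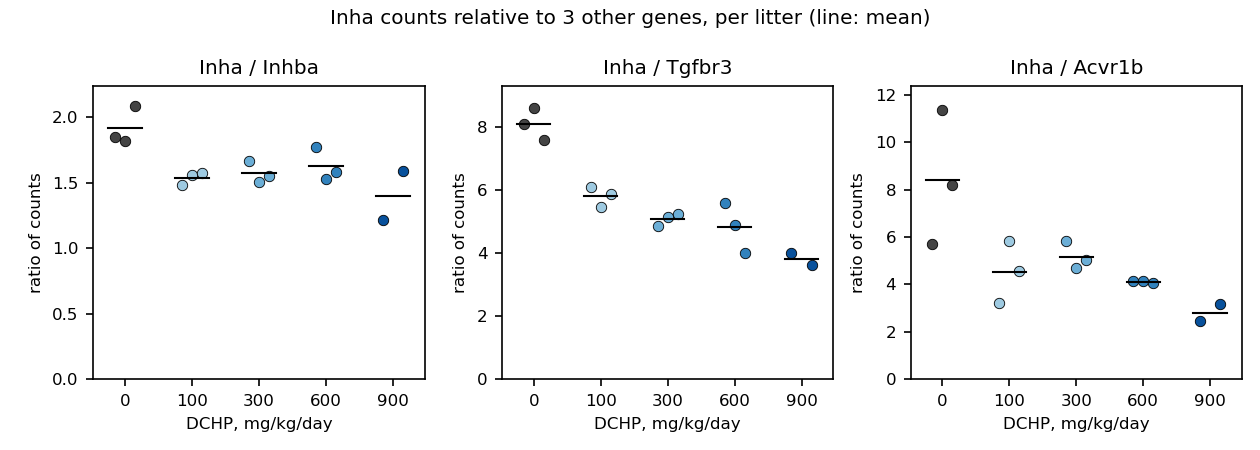
Ratio of Inha counts to the counts of Inhba, Tgfbr3 and Acvr1b in each litter (y axis, from 0) by DCHP dose in mg/kg/day (x axis), with lines at the group means. The mean ratio to Tgfbr3 is 8.11 in vehicle and 3.82 at 900 mg/kg/day, and that to Inhba is 1.92 and 1.40.

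The genes whose levels were most like those of Inha over the 14 litters, by Pearson correlation of log2 CPM among 9788 genes, were Hsd3b1 (r = 0.962), Hsd3b3 (r = 0.958), Cyp11a1 (r = 0.948), Fdx1 (r = 0.946) and Cyp17a1 (r = 0.936). These encode steroid dehydrogenases, the cholesterol side-chain cleavage enzyme, its electron donor and the enzyme that makes androgen precursors. Hsd3b1 and Hsd3b3 are close paralogues whose reads may be shared, so their values are uncertain. The mean count a library was 23.0 for Hsd3b1 and 27049 for Hsd3b3, so Hsd3b1 may not be a separate gene in this ranking. The counts of all 5 were mostly fractional, as were those of the other genes named as like Inhba apart from Inha. The gene most like Inhba was Inha (r = 0.930), followed by Fdx1 (0.910), the fatty acid elongase Elovl6 (0.900), the HDL receptor Scarb1 (0.883) and Cyp11a1 (0.882). These correlations describe litters that share the dose series and their library scaling, and no test is attached to them.

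A list of the hormone axis and steroidogenic partners of Inha holds 14 genes, of which 11 were tested. Of these, 0, 3, 4 and 5 fell at 100, 300, 600 and 900 mg/kg/day and 6 fell over dose, and none rose. In the same tests 0%, 0.0472%, 0.189%, 0.204% and 0.33% of all tested genes fell. The list was drawn up with earlier results of these data known, so its calls are not independent support. DESeq2 called 0, 3, 5 and 6 of the list as lower at the 4 doses and 6 over dose. Among 18170 genes it called 0, 23, 52 and 74 as lower at the 4 doses, and 86 of 18165 over dose. In edgeR 3 of the list lay lower at 100 mg/kg/day at an unadjusted p under 0.05, beside 1.6% of all tested genes. With all but vehicle litter 1 and 100 mg/kg/day litter 1, edgeR called 0, 2, 3 and 8 as lower at the 4 doses and 7 over dose, and Gata4 as higher at 900 mg/kg/day and over dose. Over all 12608 genes that fit called 0, 39, 59 and 1140 as lower at the 4 doses and 688 over dose. It called 962 as higher at 900 mg/kg/day and 806 over dose. The 6 of the list that fell over dose were Star, which moves cholesterol into mitochondria, Cyp11a1, Scarb1, Fdx1, Cyp17a1 and the Leydig hormone gene Insl3. The median log2 difference of the 11 genes at 900 mg/kg/day was -2.17, beside 0.024 for all tested genes. Both at 900 mg/kg/day and over dose, 9 of the 11 had log2 values below 0 and 2 had values above 0. Of all tested genes 46.9% and 49.9% had values below 0 there. At 900 mg/kg/day the mean levels were 16.7% of vehicle for Star, 21.2% for Cyp11a1, 22.3% for Scarb1, 16.2% for Fdx1, 7.48% for Cyp17a1 and 21.9% for Insl3, beside 41.7% for Inha and 57.6% for Inhba. At 100 mg/kg/day Inha was at 65.6%, within the range of 45.1% to 68.5% of those 6 genes.

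**Figure D5:**
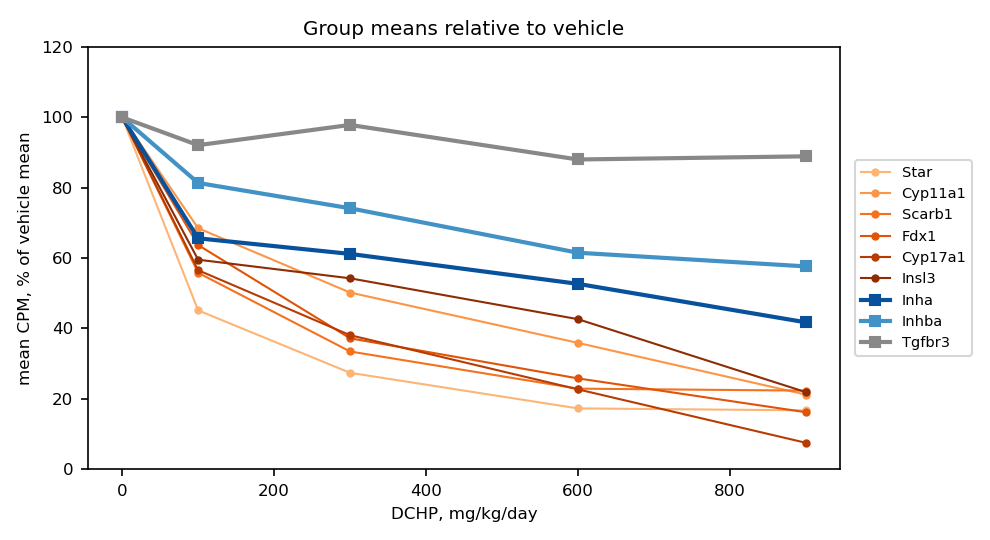
Mean CPM of each gene as a percentage of its vehicle mean (y axis) by DCHP dose in mg/kg/day (x axis), over 3 litters a group and 2 at 900 mg/kg/day, with no error shown. Inha (41.7% at 900 mg/kg/day) and Inhba (57.6%) lie below Tgfbr3 and, at 300 mg/kg/day and above, over the 6 steroidogenic and Leydig genes drawn in orange.

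The summed Leydig markers were at 60.4%, 52.3%, 38.5% and 21.8% of vehicle with rising dose, beside the falls of Inha and Inhba. Insl3 made up most of that sum, with a TMM-scaled vehicle mean of 3862 CPM beside an unscaled summed mean of 5273 CPM. Its own means were 59.5%, 54.2%, 42.6% and 21.9% of vehicle, and it passed at no single dose (edgeR adjusted p = 0.108 at 900 mg/kg/day). All 6 Leydig markers had negative log2 differences at every dose. Of them 5 are also on the list above, and the other is Hsd3b1, whose values are uncertain. Of the 9 tested Sertoli markers 0 changed at any dose or over dose in edgeR or DESeq2, and 1, 0, 0, 1 and 1 had an unadjusted p under 0.05 in edgeR. Without vehicle litter 1 and 100 mg/kg/day litter 1, Amh fell and Gata4 rose at 900 mg/kg/day, the latter also over dose. That fit called 2102 of 12608 genes at 900 mg/kg/day and 1494 over dose, so these calls are not particular to Sertoli markers. In a pool of whole testes, fewer cells of a type and less RNA per cell cannot be told apart. The part of Leydig cell number in the values of Inha and Inhba was not tested.

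The rest of the pathway gave no called change in edgeR. Of 9 tested ligands of the family, 8 receptors and co-receptors, 13 Smads and co-regulators, and 12 antagonists and processing enzymes, 0 passed at any dose or over dose. Their median log2 differences at 900 mg/kg/day were 0.32, 0.056, -0.045 and 0.036, beside 0.024 for all tested genes. At an unadjusted p under 0.05 the slope over dose lay outside 0 for 1, 2, 0 and 1 genes of these lists, beside 5.09% of all tested genes. DESeq2 called only the slope of Bambi, a pseudoreceptor that blocks type I receptors, which was 0.041 ± 0.011 in edgeR (adjusted p = 0.187), with means of 55.7 ± 1.48 CPM (SD, n = 3) without DCHP and 68.8 ± 8.92 CPM (n = 2) at the highest dose. The ligand gene Bmp5 went from 1.04 ± 0.597 CPM (SD, n = 3) without DCHP to 3.18 ± 1.09 CPM (n = 2) at the highest dose, a log2 difference of 1.64 ± 0.43 that did not pass (edgeR adjusted p = 0.275). In the other direction, the receptor-list gene Igsf1 was at 3.02 ± 1.17 CPM (SD, n = 3) without DCHP and 1.76 ± 0.0632 CPM (n = 2) at the highest dose, with a slope of -0.079 ± 0.036 that did not pass (edgeR adjusted p = 0.938). Among the other genes with the smallest slope p of their lists, the slopes were -0.043 ± 0.022 for the inhibitory Smad gene Smad6, -0.029 ± 0.019 for Zfyve9, which anchors receptor Smads, and 0.018 ± 0.016 for the type I receptor gene Acvr1. They were 0.020 ± 0.015 for the BMP antagonist gene Chrd and 0.037 ± 0.022 for Ltbp1, a binding protein of latent TGF-beta, and none of these passed (edgeR adjusted p = 0.9999). Without vehicle litter 1 and 100 mg/kg/day litter 1, the slope over dose was called for the ligand genes Bmp7, Tgfb1 and Tgfb3, for the endothelial co-receptor gene Eng and for Smad9, Skil and Smurf1, all as higher. In that fit 1494 genes were called over dose, against 54 with all litters, and the endothelial marker sum was 423 to 424 CPM at 900 mg/kg/day against 349 to 411 CPM in vehicle. Other marker sums also lay higher at 900 mg/kg/day than in any vehicle litter: interstitial (429 to 449 against 294 to 390 CPM), peritubular (330 to 440 against 271 to 307 CPM), germ cell (733 to 775 against 589 to 696 CPM) and macrophage (7.90 to 8.52 against 5.49 to 6.71 CPM). At that dose 10.3% of all tested genes lay higher than vehicle without overlap. The sums use unscaled totals, under which the median log2 difference of all genes at 900 mg/kg/day was 0.10. Lower doses also exceeded every vehicle litter for germ cell (733 to 815 CPM at 100), peritubular (338 to 369 at 300, 333 to 401 at 600) and macrophage markers (at 100, 300 and 600 mg/kg/day). Of all tested genes, 2.99%, 4.88% and 5.06% lay higher than vehicle without overlap at 100, 300 and 600 mg/kg/day. The part of these cell types in the calls was not tested.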

How the data were processed

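Fetal testis RNA of 14 litters was measured by TempO-Seq with probes to 21119 genes. Per the submitters' processing notes, STAR 2.7.8a, Partek, DESeq2 and the build rn7 were used; the notes do not assign tools to tables. The authors deposited estimated counts per Ensembl gene, 83.6% of them whole to a tolerance of 1e-09, and 100% for the members. A second deposited table of estimated counts undoes attenuation, the deliberate lowering of abundant targets, for 16 genes, none a member, and the deposited log2 CPM table derives from it. The main tests use the first table; the adjusted counts served as an alternative, and the log2 values were not used.

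Counts were rounded and filtered with filterByExpr, leaving 12719 genes that hold 99.9% of counts and dropping 5455. A quasi-likelihood model with TMM scaling and robust dispersion (edgeR 4.0.16, limma 3.58.1, R 4.3.3) was fitted to all litters, with 9 residual degrees of freedom, for each dose against vehicle and neighbouring doses. A separate fit with dose as a number, with 12 residual degrees of freedom, gave the slope. Tests are two-sided, and the threshold for passing was 0.05 after Benjamini-Hochberg adjustment across every gene tested. The litter is the replicate, the labels give no batch, and litter numbers follow the label order only. Log2 CPM for pairs, correlations and the principal component used a prior count of 2. Motifs were searched by exact match in 6 of the 7 promoters, RefSeq GRCr8; Fst was not matched. The script was tested on simulated counts.

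Members and lists were chosen with earlier results of these data known. All members present are named, with the 5 genes most like Inha and Inhba (mean count of at least 20), and list genes that passed; up to 3 others a list, by smallest trend p, could be named. Alternatives were RLE size factors, unscaled totals, DESeq2 1.42.0, no filter on low counts, only the groups compared, dose rank for the slope, attenuation-adjusted counts, each litter left out, and vehicle litter 1 with 100 mg/kg/day litter 1 left out, which keeps the 2 litters at 900 mg/kg/day that lie at the same end of the first principal component.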

Additional observations from a re-analysis of the deposited data

How the results depend on the processing

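No paired analysis was possible because litters carry no number that links them across groups. The number of pairs with Inha that passed, 6, was the same in each alternative run for them, and leaving out 1 litter gave 5 to 6. These were RLE size factors, unscaled totals, attenuation-adjusted counts, dose rank, a smaller prior count, and dropping vehicle litter 1 with 100 mg/kg/day litter 1. The pairs were not run with DESeq2, without the filter or with only the groups compared. The number of members that changed over dose, 2, was the same under every alternative that gives a slope, except that leaving out 1 litter gave 1 to 2. The number at 300 mg/kg/day, 0 as reported, was 1 with DESeq2 and 1 without vehicle litter 1 and 100 mg/kg/day litter 1 (the 2 litters), a fit that keeps both 900 mg/kg/day litters, which lie at the same end of the first principal component. At 600 mg/kg/day it was 1 as reported, 0 with RLE size factors (Inha adjusted p = 0.0502 in edgeR), 2 with DESeq2, 0 with only the groups compared (Inha adjusted p = 0.201 in edgeR) and 2 without those 2 litters. At 900 mg/kg/day it was 1 as reported, 2 with DESeq2, 0 with only the groups compared (Inha adjusted p = 0.114 in edgeR) and 2 without those 2 litters. Leaving out 1 litter gave 0 to 1 at 600 and 0 to 1 at 900 mg/kg/day. The cause of these differences was not tested, although fits of only the groups compared hold fewer samples.

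Changes of sign were seen only in values that did not pass. With unscaled totals they were Tgfbr3 at 300 mg/kg/day (0.0023) and Inhba at 900 against 600 mg/kg/day (0.012), and without the 2 litters Fst (-0.58) and Fstl3 (0.083) at 100 and Acvr1b (0.10) at 300 mg/kg/day. Leaving out 1 litter, or those 2, the log2 difference against vehicle at 100 mg/kg/day ranged from -0.58 to 0.48 for Fst, -0.78 to 0.40 for Fstl3 and -0.065 to 0.35 for Acvr2b. At 300 mg/kg/day it ranged from -0.094 to 0.62 for Fst, -0.28 to 0.94 for Fstl3, -0.20 to 0.11 for Acvr1b, -0.22 to 0.52 for Acvr2b and -0.12 to 0.030 for Tgfbr3. At 600 mg/kg/day it ranged from -0.078 to 0.63 for Fst, -0.093 to 0.22 for Acvr1b and -0.040 to 0.41 for Acvr2b. Inhba at 900 against 600 mg/kg/day ranged from -0.25 to 0.064, and the slope of Acvr1b from -0.0062 to 0.032. Unscaled totals moved the median of all genes to 0.10 at 900 mg/kg/day against vehicle and 0.14 against 600 mg/kg/day. Over all genes, 6, 28 and 32 were called at the 3 highest doses and 54 for the slope as reported, and 39, 66, 2102 and 1494 without the 2 litters. With DESeq2 they numbered 26 at 300, 58 at 600, 85 at 900 mg/kg/day and 119 over dose. With only the groups compared they numbered 8 and 4 at 600 and 900 mg/kg/day. For 900 against 600 mg/kg/day, 0 as reported, 7 were called with DESeq2, 2143 with only the groups compared and 1769 without the 2 litters. Counts limit Fst, Fstl3 and Acvr2b, whose SD from counting alone was 0.387, 0.487 and 0.373 on the log2 scale, beside 0.439, 0.604 and 0.429 between litters of a group.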
